A study of Danio rerio with 12 samples.

Results

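The stage change of zebrafish embryos with reduced Pbx function was measured as the 3 arrays of pbx2;pbx4 morphants at 18 somites against the 3 arrays of pbx2;pbx4 morphants at 10 somites. These are 6 of the 12 arrays of the study, and every probe set that is not an Affymetrix control was read, 15502 of 15617. The question is which changes of segmentation still took place when Pbx function was reduced. The morphants were embryos of no stated strain that received morpholinos against pbx2 and pbx4 at the 1 to 2 cell stage and were profiled at 18 or at 10 somites. The RNA is taken to be of whole embryos, since the labels name no tissue. The other 6 arrays, 3 at 18 somites and 3 at 10 somites, hold embryos injected with a control morpholino, which the labels tie to the words pbx2 mutant without further detail. All 12 arrays thus come from injected embryos, and no uninjected group was analysed here. Morpholinos block translation or splicing of their target for the first days only, so the morphants are a transient knockdown and not a null. Replicates are numbered 1 to 3 in each group, with no word on whether clutches or injections differed, so the p-values measure the spread between these arrays, which may be technical.

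Pbx proteins are homeodomain transcription factors of the TALE class that bind DNA together with Hox proteins and with other partners such as the myogenic factor Myod. In zebrafish they are known for their roles in hindbrain segments, fast muscle, heart and pancreas. During segmentation the tail bud gives rise to presomitic mesoderm, a molecular clock divides it into somites, and each new somite switches on myogenic regulators before its contractile genes. In the same hours the neural tube makes its first neurons, the heart tube forms, and red cells fill with globin.

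A level below is the log2 signal of a probe set minus the median of its array, so 0 is the signal of the median probe set and 1 unit is a factor of 2. A change is the mean level at 18 somites minus the mean level at 10 somites, with the standard error (SE) of the model and an adjusted p from limma. Arrays of a group correlated between 0.995 and 0.998 over probe sets. The tag range is the range of 8 control probe sets for sequences that embryos do not carry. Its highest group mean was -1.27 in morphants at 18 somites and -1.26 at 10 somites, and a level at or under it cannot be told from background. A fold or change that starts or ends there is that of the measured signals and may understate the change of the transcript. Of 36 tissue markers chosen for the whole embryo, 30 were measured, and 28 of these stood above the tag range in morphants at 18 somites and 25 at 10 somites. Each of the 12 tissues had a marker above it at 18 somites and 11 had one at 10 somites, the exception being the heart. A lower level in a whole embryo can mean fewer cells of a type or less RNA per cell, and the arrays cannot tell these apart.

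Both targeted transcripts were present at both stages. The pbx2 probe set read 3.33, 3.39 and 2.95 in morphants at 18 somites, against 2.99, 3.04 and 2.95 at 10 somites, and its change of 0.23 ± 0.12 did not pass the test (adjusted p = 0.113). For pbx4 the levels were 4.09, 4.12 and 3.77 at 18 somites, against 4.28, 4.32 and 4.33 at 10 somites, and fell by 0.32 on the log2 scale (SE 0.09, adjusted p = 0.0087). The pbx4 arrays of the stages did not overlap, while those of pbx2 did. Both calls depend on the scaling, since after quantile normalization pbx2 rose by 0.37 (adjusted p = 0.014) and the pbx4 change of -0.16 did not pass (adjusted p = 0.129). Since a morpholino need not lower the RNA it targets, the knockdown itself cannot be judged from these levels. Among the other pbx genes, pbx1a rose by 0.65 ± 0.08 (adjusted p = 1.31e-05).

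In morphants, 8281 of 15502 probe sets (53.4%) differed between the stages at an adjusted p under 0.05, 3854 higher (24.9%) and 4427 lower (28.6%) at 18 somites. The arrays of the stages did not overlap for 9382 probe sets (60.5%), which is the background for each such statement below. Changes of at least 2-fold were fewer, 272 higher (1.75%) and 81 lower (0.523%). Over the 8793 named genes, each read from its probe set with the highest mean, 2010 rose (22.9%) and 2813 fell (32.0%), and the median change was -0.05. The larger changes were mostly rises, with 178 genes at least 2-fold higher (2.02%) and 43 at least 2-fold lower (0.489%). Changes of small size moved with the signal level. In the fifth of probe sets with the lowest levels the median change was 0.19, and in the fifth with the highest levels it was -0.18. After quantile normalization of the 12 arrays, these medians were 0.00 and -0.04, so the quantile value is given beside lists of abundant genes.

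**Figure D1:**
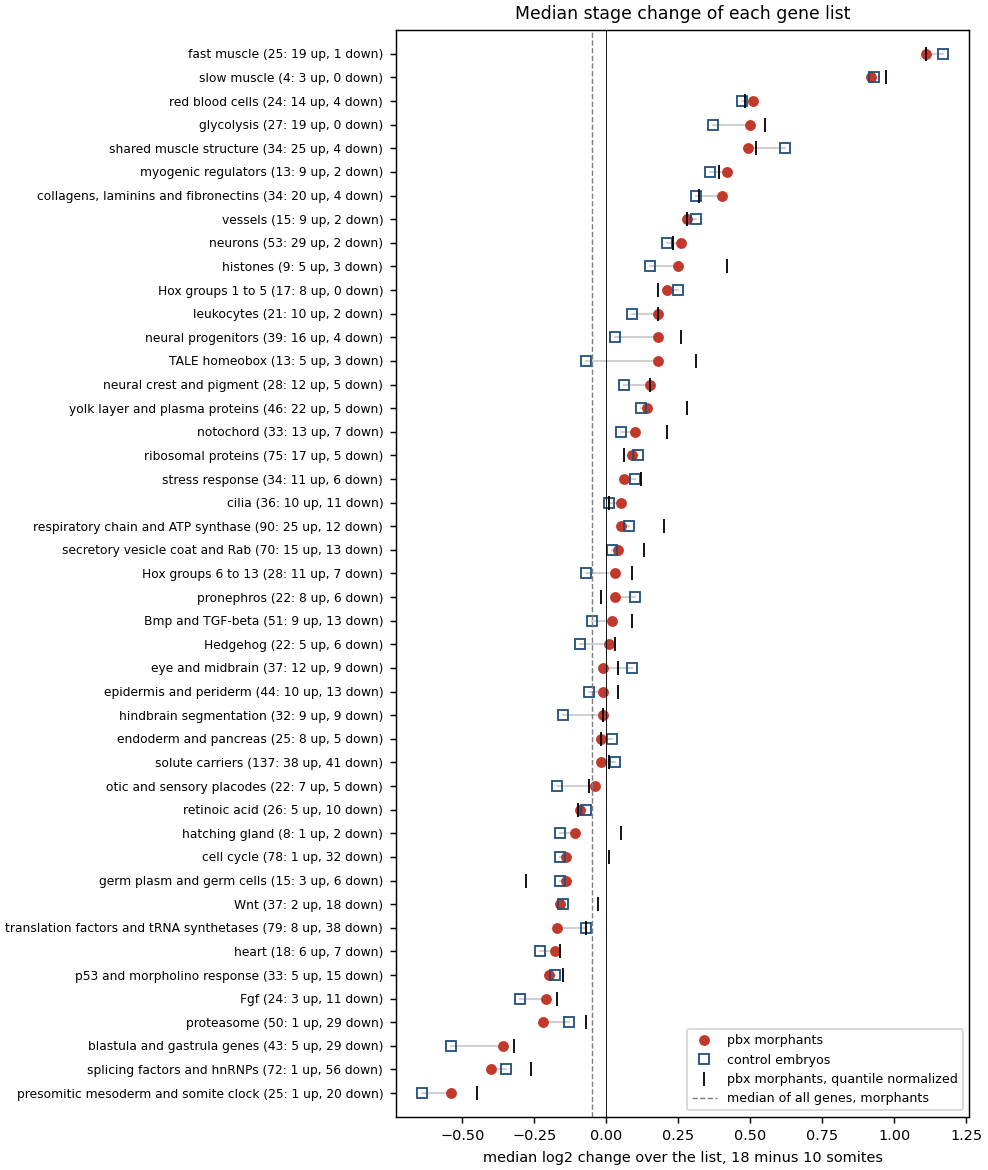
Median log2 change between 18 and 10 somites over each of 45 gene lists, in pbx morphants (filled circles), in control embryos (open squares) and in morphants after quantile normalization (vertical ticks); labels give the genes measured and how many rose or fell in morphants, and the dashed line is the median of all genes in morphants (-0.05). Fast and slow muscle lie highest, at 1.11 and 0.92 in morphants, and genes of the presomitic mesoderm and somite clock lie lowest, at -0.54.

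Skeletal muscle genes had the highest list medians. Of 25 fast muscle genes measured, 19 rose and 1 fell in morphants, with a median change of 1.11, against -0.05 over all genes. The gene atp2a1 encodes the calcium pump of the fast muscle reticulum and had the highest change among the named genes. It read 2.44, 1.46 and 2.2 in morphants at 18 somites, against -1.52, -1.92 and -1.66 at 10 somites, a 13.3-fold rise (3.73 ± 0.19, adjusted p = 1e-08). All 10 somite arrays lay in the tag range and all 18 somite arrays far above it. The light chain gene myl1 read 2.82, 1.79 and 2.51 at 18 somites, against -1.01, -1.30 and -1.36 at 10 somites, a 12.1-fold rise (3.60 ± 0.24, adjusted p = 8.3e-08). The regulatory light chain gene mylpfa read 2.00, 1.14 and 2.34, against -1.04, -1.26 and -1.12 (2.97 ± 0.22, adjusted p = 1.91e-07). The stages did not overlap for either light chain, and the second 18 somite array was the lowest of its group for all of these genes. The fast myosin heavy chain gene myhz1.3 read 0.09, -0.90 and 0.81 at 18 somites, against -3.38, -3.16 and -3.24 at 10 somites (3.26 ± 0.28, adjusted p = 9.15e-07), again without overlap. The creatine kinase genes ckmb and ckma, which buffer ATP in muscle, rose by 2.56 ± 0.14 and 2.55 ± 0.16, although probes of such close paralogs can share signal. The single fast muscle gene that fell was tnnt3b, a troponin T gene, at -0.28 ± 0.09 (adjusted p = 0.0159), and its call was lost without any 1 of 3 morphant arrays, the first at 18 somites or the first or second at 10 somites (adjusted p up to 0.0754).

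Slow muscle and its regulators rose as well. Of 4 slow muscle genes measured, 3 rose. The slow myosin gene smyhc1 read 4.11, 4.04 and 4.07 in morphants at 18 somites, against 2.96, 2.95 and 2.83 at 10 somites, a 2.23-fold rise (1.16 ± 0.07, adjusted p = 3.22e-08). Its arrays barely varied within a stage. The slow fibre factor prox1a rose by 1.06 ± 0.06. Of 13 myogenic regulators, 9 rose and 2 fell, with a median change of 0.42. The gene myog, which encodes the factor that acts at terminal differentiation, read 2.33, 2.04 and 2.08 at 18 somites, against 0.17, 0.05 and -0.21 at 10 somites (2.15 ± 0.15, adjusted p = 1.35e-07). The determination gene myod1 rose less, by 0.58 ± 0.09, and the muscle factor mef2ca by 0.87 ± 0.13. The members that fell act in early somites: tcf15, which keeps somites epithelial, at -0.47 ± 0.09, and six4b at -0.38 ± 0.08. Among 34 genes of shared muscle structure, 25 rose and 4 fell. The ring finger gene trim63a rose by 1.78 ± 0.10 and the Z-disc gene ldb3b by 2.30 ± 0.14, while the small heat shock gene hspb1 read 4.37, 4.49 and 4.25 at 18 somites, against 5.45, 5.71 and 5.72 at 10 somites (-1.26 ± 0.09, adjusted p = 2.41e-07). Among the 15 highest changes, cdh15, a cadherin of muscle cells, rose by 2.32 ± 0.13.

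**Figure D2:**
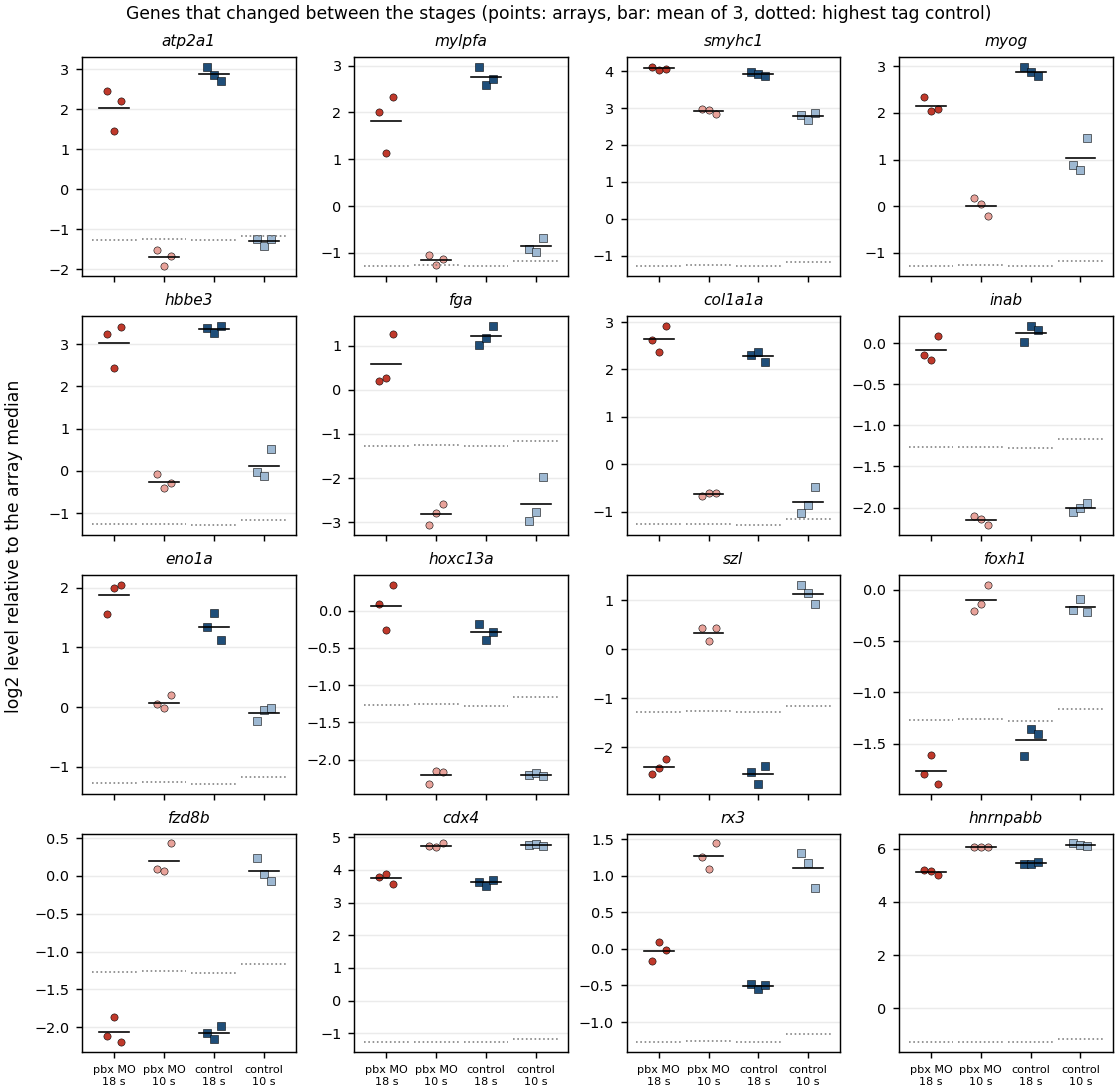
Log2 level relative to the array median (vertical axis) of 16 genes on each array of morphants (pbx MO) at 18 and 10 somites and of controls at 18 and 10 somites; points are arrays, bars are means of 3 and dotted lines mark the highest tag control of the group. The 3 morphant arrays at 18 somites lie clear of the 3 at 10 somites in every panel, with atp2a1 averaging 2.03 against -1.70 and szl averaging -2.4 against 0.34.

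More genes of red blood cells and vessels rose than fell. Of 24 red blood cell genes, 14 rose and 4 fell in morphants, with a median change of 0.51. The embryonic globin gene hbbe3 read 3.23, 2.43 and 3.41 at 18 somites, against -0.07, -0.41 and -0.29 at 10 somites, a 9.74-fold rise (3.28 ± 0.21, adjusted p = 5.43e-08). Globin hbae3 read 3.35, 2.4 and 3.60, against 1.28, 0.76 and 1.03 (2.09 ± 0.25, adjusted p = 1.37e-05). For both globins the second 18 somite array was the lowest of its stage and still above every 10 somite array. The carbonic anhydrase gene cahz, which red cells also use, went the other way, at -0.92 ± 0.14, and the erythroid factor gata1a did not pass the test (-0.12, adjusted p = 0.49). Of 15 vessel genes, 9 rose and 2 fell. The Vegf receptor gene kdrl read 0.52, 0.21 and 0.71 at 18 somites, against -0.29, -0.22 and -0.57 at 10 somites (0.85 ± 0.12, adjusted p = 4.47e-05). The apelin receptor gene aplnra, active in early lateral mesoderm, fell by 0.33 on the log2 scale (SE 0.07, adjusted p = 0.00195), and by 0.19 after quantile normalization, where it did not pass (adjusted p = 0.0526).

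In the lists of matrix and plasma proteins more genes rose than fell. Of 34 collagens, laminins and fibronectins, 20 rose and 4 fell, with a median change of 0.40. The collagen gene col1a1a read 2.63, 2.36 and 2.92 in morphants at 18 somites, against -0.68, -0.61 and -0.61 at 10 somites, a 9.65-fold rise (3.27 ± 0.14, adjusted p = 1.83e-09), and its second probe set rose by 2.33. The periostin gene postnb rose by 2.38 ± 0.16. Fibronectin fn1a, which lines forming somites, read 3.16, 3.29 and 2.58 at 18 somites, against 3.64, 3.83 and 3.67 at 10 somites, and fell by 0.70 on the log2 scale (SE 0.14, adjusted p = 0.00102). Its 2 other probe sets ranged from -0.57 to -0.19, with adjusted p from 0.0185 to 0.108. Of 33 notochord genes, 13 rose and 7 fell: cartilage-type collagen genes col9a1b and col9a3 rose by 1.47 ± 0.11 and 1.21 ± 0.12, and the early notochord factor noto fell by 0.66 on the log2 scale (SE 0.08). Among 46 genes of the yolk layer and plasma proteins, 22 rose, 5 fell and 19 did not pass. The fibrinogen gene fga read 0.20, 0.27 and 1.27 at 18 somites, against -3.06, -2.79 and -2.60 at 10 somites, a 10.6-fold rise (3.40 ± 0.27, adjusted p = 4.57e-07) that began in the tag range. The sulfotransferase gene sult1st1 rose by 2.48 ± 0.10 and also lay in the tag range at 10 somites.

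In the pronephros, the embryonic kidney, 8 of 22 genes rose and 6 fell, beside 22.9% and 32.0% of all named genes. The sodium pump subunit gene atp1a1a.4 read 1.86, 1.82 and 2.14 in morphants at 18 somites, against -1.81, -1.57 and -1.43 at 10 somites (3.55 ± 0.15, adjusted p = 1.6e-09). The tubule cadherin gene cdh17 rose by 1.66 ± 0.11. The regulators hnf1bb and lhx1a, which also act in other tissues, fell by 0.96 and 0.90 on the log2 scale (SE 0.08 and 0.07), and lhx1a ended in the tag range. The 2 other lhx1a probe sets ranged from -0.89 to -0.06 (adjusted p up to 0.523). The regulator pax8 did not pass the test (-0.23, adjusted p = 0.0881).

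More neuronal genes rose than fell. Of 53 neuron genes, 29 rose and 2 fell, with a median change of 0.26. After quantile normalization 23 rose and 3 fell, with a median of 0.23, and 23 rose without the first 10 somite morphant array. The neuronal intermediate filament gene inab read -0.14, -0.20 and 0.09 in morphants at 18 somites, against -2.1, -2.14 and -2.21 at 10 somites, a 4.2-fold rise (2.07 ± 0.08, adjusted p = 1.5e-09). Its paralog inaa went the opposite way, at -1.55, -1.49 and -1.49 against 0.11, 0.11 and 0.11 (-1.62 ± 0.06, adjusted p = 7.92e-10). The inab arrays at 10 somites and the inaa arrays at 18 somites lay in the tag range, so each paralog was above background at 1 stage only. The synaptic gene snap25a rose by 1.57 ± 0.07 but had a mean in the tag range at both stages. The pan-neuronal gene elavl3 rose by 0.33 ± 0.10 (adjusted p = 0.0113), a call lost without the first 10 somite morphant array (adjusted p = 0.0574), and its 3 other probe sets ranged from -0.37 to 0.43. The neuron markers neurod1 and isl1a did not pass (0.13 and -0.04, adjusted p = 0.284 and 0.731). Of 39 neural progenitor genes, 16 rose and 4 fell (1 without the first 10 somite morphant array). The glial gene gfap read 1.51, 1.61 and 1.62 at 18 somites, against 0.97, 1.17 and 0.90 at 10 somites (0.57 ± 0.10, adjusted p = 0.000242), and the proneural gene ascl1a rose by 0.99 ± 0.10. Of 28 neural crest and pigment genes, 12 rose and 5 fell. The melanocyte factor mitfa rose by 0.52 ± 0.09, within the tag range. The nuclear receptor gene nr2f1b read -0.64, -0.68 and -0.86 at 18 somites, against -3.20, -2.96 and -3.27 at 10 somites (2.42 ± 0.13, adjusted p = 1.44e-08).

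Glycolysis was the metabolic list with the clearest direction, as 19 of its 27 genes rose and none fell by limma, with a median change of 0.50. At an unadjusted p under 0.05, 1 gene fell (pdha1a). The aldolase gene aldoab, used in muscle, read 3.58, 3.20 and 3.51 in morphants at 18 somites, against 1.65, 1.43 and 1.38 at 10 somites (1.94 ± 0.12, adjusted p = 3.84e-08). The enolase gene eno1a read 1.56, 2.00 and 2.05, against 0.05, -0.02 and 0.20 (1.79 ± 0.13, adjusted p = 2.19e-07). Neither gene overlapped between the stages. Of 90 genes of the respiratory chain and ATP synthase, 25 rose and 12 fell, with a median of 0.05, and after quantile normalization 46 rose and 2 fell, with a median of 0.20.

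Genes of the blastula and gastrula were lower at the later stage. Of 43 measured, 29 fell and 5 rose in morphants, with a median change of -0.36 (-0.32 after quantile normalization). The gene szl (sizzled), a secreted inhibitor of Chordin cleavage, had the largest fall among the named genes. It read -2.55, -2.43 and -2.23 at 18 somites, against 0.43, 0.17 and 0.43 at 10 somites, and fell 6.71-fold (-2.75 ± 0.12, adjusted p = 2.05e-09). The gene foxh1 encodes a Nodal pathway transcription factor. It read -1.80, -1.61 and -1.89, against -0.21, -0.14 and 0.05 (-1.67 ± 0.10, adjusted p = 2.47e-08), and its other probe set fell by 1.56. Both ended in the tag range, so the falls reached background. The Bmp inhibitor gene chrd fell by 1.01 on the log2 scale (SE 0.07), and the pluripotency factor gene pou5f3 by 0.36 (SE 0.09, adjusted p = 0.00344). The Nodal inhibitor gene lft1, which is used again in the left side of the body, read -0.24, -0.64 and -0.70 at 18 somites, against -1.58, -1.66 and -1.04 at 10 somites (0.90 ± 0.15, adjusted p = 0.000207). The germ plasm helicase gene ddx4 fell by 0.73 on the log2 scale (SE 0.06). Of the 15 germ cell genes 6 fell and 3 rose, counts near the 32.0% and 22.9% of all named genes.

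The tail bud and somite clock program also declined. Of 25 genes of the presomitic mesoderm and somite clock, 20 fell and 1 rose (2 with the replicate block), with a median change of -0.54 (-0.45 after quantile normalization, with 17 lower and 3 higher). The caudal homeobox gene cdx4, which promotes posterior growth, read 3.77, 3.89 and 3.57 in morphants at 18 somites, against 4.72, 4.71 and 4.81 at 10 somites, and fell 2.00-fold (-1.0 ± 0.08, adjusted p = 5.45e-07). The signal gene fgf8a read 0.44, 0.81 and 0.39, against 1.56, 1.47 and 1.52 (-0.97 ± 0.10, adjusted p = 3.63e-06). The stages of both genes stood apart. The Notch ligand gene dla was the member that rose, at 0.25 ± 0.10 (adjusted p = 0.0461), and its call was lost in 10 of the 12 fits that left out 1 array, every one except those without the first 18 somite or the third 10 somite morphant array (adjusted p up to 0.219). Among Fgf pathway genes 11 of 24 fell and 3 rose. The Fgf response gene etv5a fell by 0.90 on the log2 scale (SE 0.07), and receptor genes fgfr3 and fgfr2 rose by 0.64 ± 0.07 and 0.32 ± 0.07. Among Wnt pathway genes 18 of 37 fell and 2 rose (4 without the second 18 somite morphant or the third 10 somite control array, and 5 with the replicate block), with a median change of -0.16 (-0.03 after quantile normalization, with 15 lower and 5 higher). The Wnt receptor gene fzd8b read -2.12, -1.86 and -2.2 at 18 somites, against 0.09, 0.07 and 0.43 at 10 somites (-2.25 ± 0.11, adjusted p = 9.63e-09), and the Wnt response gene sp5l fell by 0.86 on the log2 scale (SE 0.10).

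Early eye and other regulators were among the 15 largest falls. The eye field gene rx3 read -0.16, 0.10 and -0.02 in morphants at 18 somites, against 1.26, 1.09 and 1.44 at 10 somites (-1.29 ± 0.12, adjusted p = 1.32e-06), while its relative rx1, which acts later in the retina, rose by 0.80 ± 0.09. The homeobox gene six7 read -1.68, -1.59 and -2.05, against 0.24, -0.09 and 0.32 (-1.93 ± 0.15, adjusted p = 2.94e-07), but its second probe set had a change of -0.34. The eye and midbrain list as a whole was mixed, with 12 of 37 genes higher and 9 lower, beside 22.9% and 32.0% of all named genes. The calcium binding gene s100a1 read -0.40, -0.54 and -1.70 at 18 somites, against 1.71, 1.56 and 0.46 at 10 somites (-2.13 ± 0.38, adjusted p = 0.000354). The third array was the lowest of its group at both stages in morphants and in controls. The other falls in that group of 15 were alox5b.3 (-2.08), the ubiquitin ligase gene fbxo32 (-1.80), gngt2a (-1.79), lancl1 (-1.78), pth2ra (-1.42), the steroid enzyme gene hsd3b2 (-1.32), the interferon-induced gene isg15 (-1.27) and mical3b (-1.26).

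In the endoderm and pancreas, 8 of 25 genes rose and 5 fell in morphants, beside 22.9% and 32.0% of all named genes. The insulin gene insb read -2.17, -1.99 and -2.15 at 18 somites, against -1.20, -1.16 and -1.16 at 10 somites (-0.93 ± 0.08, adjusted p = 7.39e-07), and changed by -0.75 in controls. It lay above the tag range at 10 somites and in it at 18 somites. The somatostatin gene sst2, another islet hormone gene, rose by 0.71 ± 0.08. The endoderm factor sox32 had a change of -0.02 ± 0.11 that did not pass (adjusted p = 0.878). Of 26 retinoic acid genes, 5 rose and 10 fell, beside 22.9% and 32.0% of all named genes. The retinol carrier gene rbp4 read 3.43, 3.23 and 3.51 at 18 somites, against 2.65, 2.32 and 2.13 at 10 somites (1.02 ± 0.13, adjusted p = 1.9e-05), and the receptor gene rxrba fell by 0.59 on the log2 scale (SE 0.06). Of 51 genes of the Bmp and TGF-beta pathways, 9 rose and 13 fell, neither above the 22.9% and 32.0% of all named genes. The ligand gene bmp5 read 0.76, 0.72 and 0.82, against -0.60, -0.64 and -0.90 (1.48 ± 0.09, adjusted p = 3.04e-08), opposite to the inhibitor genes szl and chrd described above.

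Surface tissues had no clear direction, and that of secretory genes depended on the scaling. Of 70 secretory vesicle coat and Rab genes, 15 rose and 13 fell in morphants, and after quantile normalization 24 rose and 5 fell. Of 44 genes of epidermis and periderm, 10 rose and 13 fell in morphants, counts near the 22.9% and 32.0% of all named genes. The keratin gene krt1-19d read 0.81, 0.82 and 0.76 at 18 somites, against -0.63, -0.59 and -0.78 at 10 somites (1.46 ± 0.10, adjusted p = 1.62e-07), while the abundant keratin gene krt97 read 4.95, 4.98 and 5.03, against 5.71, 5.54 and 5.80 (-0.70 ± 0.08, adjusted p = 7.3e-06). Among stress response genes, the chaperone genes of the endoplasmic reticulum calr and pdia4 rose by 1.13 ± 0.12 and 1.16 ± 0.17, and the heat shock factor gene hsf2 and the glutathione synthesis gene gclm fell by 0.71 and 0.67 on the log2 scale (SE 0.11 and 0.09). Of 9 histone genes 5 rose and 3 fell, and the largest rises were the linker histone gene h1-10 (1.22 ± 0.13) and hist2h2l (1.16 ± 0.11). The other hist2h2l probe set rose by only 0.30 (adjusted p = 0.0193). Of 137 solute carrier genes 38 rose and 41 fell, beside 22.9% and 32.0% of all named genes.

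Lists of abundant housekeeping genes had small median changes of either sign, and their size depended on the scaling. Of 75 ribosomal protein genes, 17 rose and 5 fell, with a median of 0.09, and after quantile normalization 10 rose and 2 fell, with a median of 0.06. Interquartile range scaling gave a median of 0.39. With the brightest 60% of probe sets by mean, centred again, 49 rose and 4 fell, with a median of 0.17, so the number of rises is not settled. Of 72 splicing factors and hnRNPs, 56 fell and 1 rose, with a median change of -0.40, which was -0.26 after quantile normalization, with 45 lower and 2 higher (over all probe sets that scaling called 24.5% lower and 20.9% higher). The member that rose, srsf6b (0.34 ± 0.11, adjusted p = 0.0236), lost its call without any 1 of 3 morphant arrays, the third at 18 somites or the first or second at 10 somites. The RNA binding gene hnrnpabb read 5.21, 5.15 and 5.03 in morphants at 18 somites, against 6.07, 6.05 and 6.05 at 10 somites, and fell 1.90-fold (-0.93 ± 0.06, adjusted p = 1.32e-07). Of 50 proteasome genes 29 fell and 1 rose, with a median of -0.22, and after quantile normalization 13 fell and 5 rose, with a median of -0.07, close to the share of all probe sets called lower. The 79 translation factors and tRNA synthetases had 38 lower and 8 higher (5 without the first 10 somite morphant array), with a median of -0.17, and after quantile normalization 23 lower and 11 higher, with a median of -0.07. Of 78 cell cycle genes 32 fell and 1 rose (3 without the first 10 somite morphant array, and 4 with the replicate block), with a median of -0.14. After quantile normalization 13 fell and 9 rose and the median turned to 0.01, so no direction is given for that list. Within it the replication licensing gene cdt1 fell by 0.61 on the log2 scale (SE 0.08), and by 0.51 after quantile normalization.

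Hox genes differed by paralog group, numbered from the head end to the tail end. No gene of groups 1 to 5 fell by limma, at an adjusted or at an unadjusted p under 0.05, and 8 of 17 rose, among them hoxb4a (0.59 ± 0.10) and hoxa3a (0.53 ± 0.07). The other hoxa3a probe set, at 0.18, did not pass (adjusted p = 0.105), and 6 genes rose without the third 18 somite morphant array. With the replicate block 9 rose and 1 fell, hoxd4a (-0.16, adjusted p = 0.13, and 0.0411 with the block). Of 8 genes in groups 6 to 8, 2 rose and 2 fell, and of 13 in groups 9 to 11, 5 rose and 3 fell. Among all named genes, 22.9% rose and 32.0% fell. The larger falls were hoxc6b (-0.81 ± 0.09, adjusted p = 1.06e-05) and hoxd9a, which read 0.79, 0.84 and 0.94 in morphants at 18 somites, against 1.58, 1.65 and 1.52 at 10 somites (-0.73 ± 0.08, adjusted p = 4.79e-06). In groups 12 and 13, which act last in the tail bud, 3 of 4 genes rose, with a median of 1.03. Of these, hoxc13a read 0.09, -0.26 and 0.35 at 18 somites, against -2.32, -2.15 and -2.16 at 10 somites, a 4.83-fold rise (2.27 ± 0.12, adjusted p = 1.33e-08). The genes hoxd13a and hoxc12b rose by 1.07 ± 0.09 and 0.99 ± 0.07. All 3 were in the tag range at 10 somites and above it at 18 somites. The exception was hoxa13b, at 0.07 ± 0.10.

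**Figure D3:**
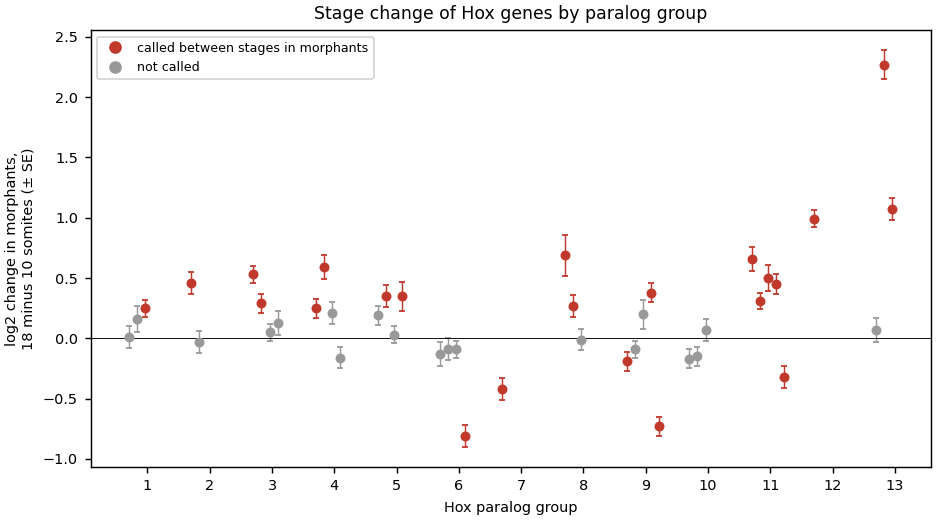
Log2 change in morphants between 18 and 10 somites (vertical axis, error bars are SE) of 42 Hox genes by paralog group (horizontal axis); red points passed the test and grey points did not. Groups 1 to 5 hold no gene that was called lower without the replicate block, where hoxd4a was at -0.16, and the highest change is hoxc13a in group 13, at 2.27.

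Set beside the control embryos, the morphant stage change was close in direction and size for most probe sets. In controls 7892 probe sets (50.9%) were called, 3786 higher (24.4%) and 4106 lower (26.5%). The stage comparisons in morphants and controls share no array, but each pair of groups shares its stage, the scale of that stage and the replicate numbers. Across the 15502 probe sets the changes had a Pearson r of 0.92 with a slope of 0.933, a description across probe sets, which are not independent replicates. Of the 255 probe sets (1.64%) at least 2-fold higher at 18 somites in controls, 254 (99.6%) were also called higher in morphants and 209 (82.0%) were at least 2-fold higher there. Their median change was 1.32 in morphants and 1.35 in controls. Of the 88 probe sets (0.568%) at least 2-fold lower in controls, 87 (98.9%) were called lower in morphants and 51 (58.0%) were at least 2-fold lower, with a median of -1.06 in morphants and -1.17 in controls. The exceptions were an unnamed probe set (-0.03 in morphants, 1.06 in controls) and pnhd, a secreted regulator of early mesoderm in Xenopus.

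Taken from the morphant side, 272 probe sets were at least 2-fold higher at 18 somites, and 269 (98.9%) of them were called higher in controls. The 3 others were a second probe set of the cyclin gene ccng2 (control change 0.26, adjusted p = 0.268), the chaperone gene hsp90b1 (0.47, adjusted p = 0.0665) and the oxygen sensor gene egln3 (0.59, adjusted p = 0.491). The representative probe set of ccng2 was called higher in both, at 1.09 in morphants and 0.60 in controls. Of the 81 at least 2-fold lower in morphants, 77 (95.1%) were called lower in controls. The named exceptions were phlda3 and isg15, whose control changes of -0.25 and -0.42 narrowly missed the threshold (adjusted p = 0.0575 and 0.0502). These genes and pnhd are named because their values were seen. For egln3 the arrays of a group varied widely, reading 0.22, 1.97 and 1.32 in morphants at 18 somites, against -0.84, -2.35 and 1.05 at 10 somites. Its morphant call (1.89 ± 0.68, adjusted p = 0.0305) was lost without the second or the third 18 somite or the first or second 10 somite array (adjusted p up to 0.161).

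**Figure D4:**
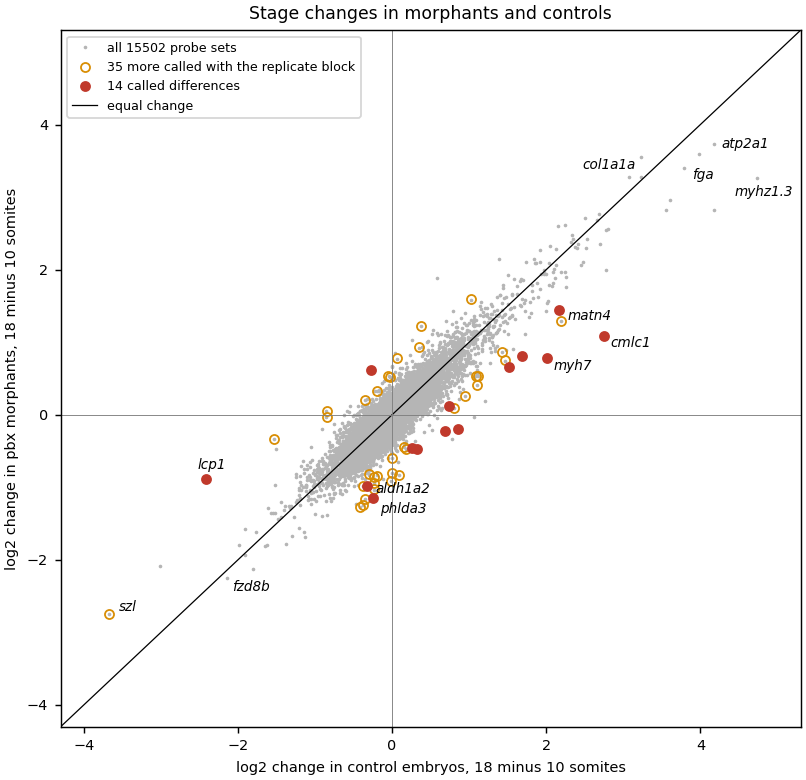
Log2 change between 18 and 10 somites in pbx morphants (vertical axis) against that in control embryos (horizontal axis) for 15502 probe sets; the line marks equal change, filled circles are the 14 called differences and open circles 35 more called with the replicate number in the model. Most probe sets lie along the line, and cmlc1, myh7 and matn4 lie below it and lcp1 above it.

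The difference of the stage changes, morphant minus control, was tested for every probe set, and 14 passed (0.0903%), 2 higher (0.0129%) and 12 lower (0.0774%). Over the 8793 named genes 2 were higher (0.0227%) and 8 lower (0.091%). With the replicate number as a block, 49 passed (0.316%), including all 14. The number called was sensitive to single arrays. It was 1 without the first 18 somite or the second or the third 10 somite morphant array, and without the first 18 somite or the second 10 somite control array. It was 2 without the third and 7 without the second 18 somite control array, 4 without the first 10 somite morphant array and 9 without the second 18 somite morphant array. Of the 14, 7 were called in the same direction in both kinds of embryo, 3 in opposite directions, 3 in controls alone and 1 in morphants alone. For 9 of them the morphant change was the smaller in size. The median 95% interval of a difference reached 0.25 to either side, without adjustment for the number of probe sets tested. Calls were made after that adjustment, so differences well above 0.25 could also be missed. In simulated data with independent noise, 47 of 100 planted differences of 0.5 and 98 of 100 of 1 were called with the right sign. The adjusted threshold depends on how many probe sets pass, and far more passed there than in the embryos. These shares may therefore overstate recovery in the embryos. Recovery also depends on the spread of a probe set. A difference of -1.48 (myhz1.3) did not pass in the embryos (adjusted p = 0.282), with an SE of 0.40 against a median SE of 0.12. The smallest difference called in the embryos was 0.62 in size, and the remaining probe sets are not shown to change alike.

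By size, the largest called difference was that of the cardiac contractile gene cmlc1, followed by the leukocyte gene lcp1 and the cardiac gene myh7. The myosin light chain gene cmlc1 read -1.25, -1.48 and -1.08 in morphants at 18 somites and -2.30, -2.42 and -2.35 at 10 somites, against 0.80, 0.65 and 0.38 in controls at 18 somites and -2.25, -2.06 and -2.12 at 10 somites. Both 10 somite means lay in the tag range, so no fold is given. The measured change was 1.09 in morphants and 2.75 in controls (difference -1.66 ± 0.16, adjusted p = 0.000739), and the difference was called in all 12 fits that left out 1 array. At 18 somites the morphant arrays lay around the top of the tag range and the control arrays well above it. The heavy chain gene myh7 read -1.84, -1.84 and -1.93 in morphants at 18 somites and -2.65, -2.54 and -2.76 at 10 somites, against 0.14, -0.12 and -0.53 in controls at 18 somites and -2.46, -2.01 and -2.08 at 10 somites. Its morphant mean remained in the tag range at both stages (change 0.78 against 2.01, difference -1.23 ± 0.20, adjusted p = 0.0396, 0.0108 to 0.125 over the alternatives). The cardiac light chain gene myl7 rose by 1.99 ± 0.12 in morphants and 2.77 in controls, a difference of -0.78 ± 0.18 that did not pass (adjusted p = 0.16), while the troponin gene tnnt2a rose by 1.26 ± 0.12 in morphants and 1.04 in controls (difference 0.22 ± 0.17, adjusted p = 0.813). Both 10 somite means of myl7 lay in the tag range. For tnnt2a the 10 somite mean lay in it in morphants (-1.75) but not in controls (-1.11). Of 18 heart genes, 6 rose and 7 fell in morphants, and 6 rose and 8 fell in controls. Among all named genes, 22.9% rose and 32.0% fell in morphants. The cardiac factor nkx2.7 fell in both, at -0.59 ± 0.09 in morphants and -0.73 in controls (difference 0.14 ± 0.12, adjusted p = 0.847).

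**Figure D5:**
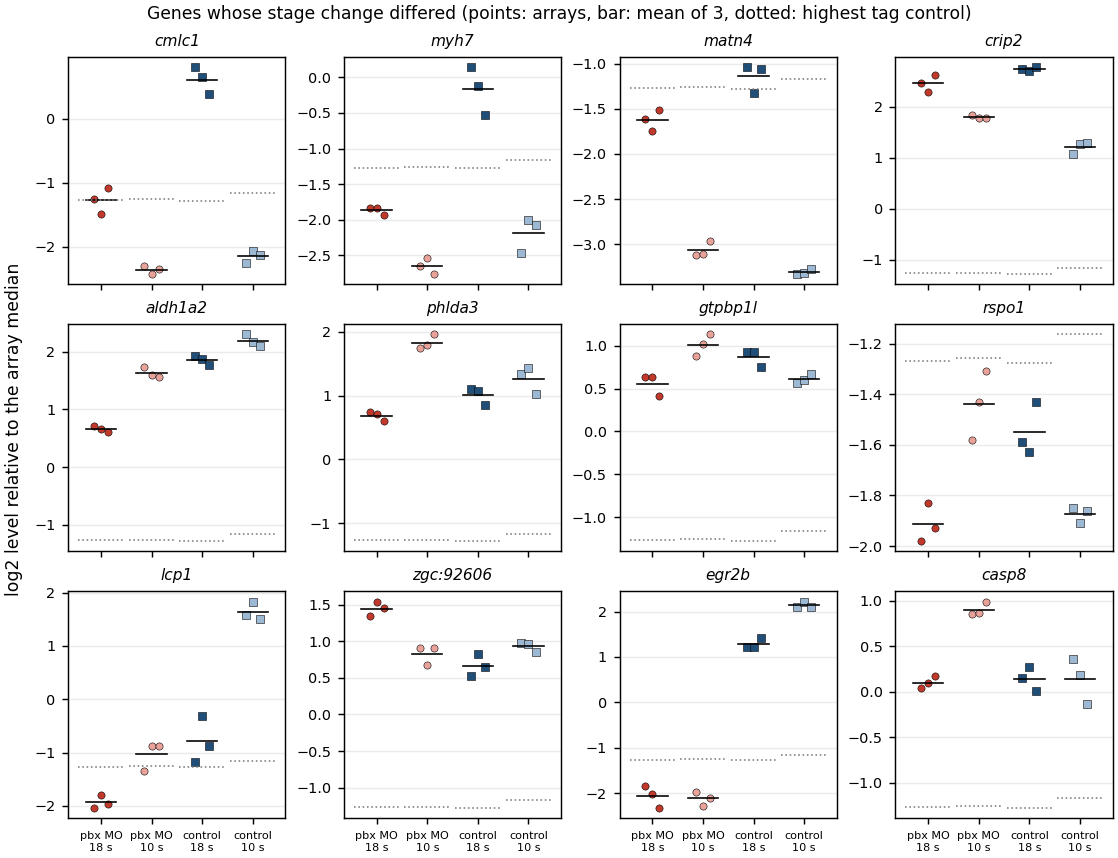
Log2 level relative to the array median (vertical axis) of 12 genes on each array of morphants (pbx MO) at 18 and 10 somites and of controls at 18 and 10 somites; points are arrays, bars are means of 3 and dotted lines mark the highest tag control of the group. For cmlc1 and myh7 the controls at 18 somites stand far above the morphants at 18 somites, for lcp1 the controls at 10 somites stand above all other arrays, and egr2b and casp8 passed with the replicate block but not without it.

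Of 25 fast muscle genes, 0 had a difference called by limma, and 5 had an unadjusted p under 0.05. Over all 15502 probe sets, 14 were called (0.0903%) and 1246 had an unadjusted p under 0.05. With so few calls, 0 in a list of 25 does not show that these genes changed alike in morphants and controls. The widest by value was myhz1.3, whose rise was 3.26 in morphants and 4.74 in controls, a difference of -1.48 ± 0.40 (adjusted p = 0.282). The difference was -0.64 ± 0.30 for mylpfa (adjusted p = 0.627) and 0.01 ± 0.10 for smyhc1 of slow muscle (adjusted p = 0.993).

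Of 21 leukocyte genes, 10 rose and 2 fell in morphants, 5 rose and 6 fell in controls, and 1 had a called difference. The morphant rises were 6 without the first 18 somite morphant array and 7 after quantile normalization. The median difference over the list was 0.1. The actin bundling gene lcp1, a marker of early macrophages and neutrophils, read -2.04, -1.79 and -1.96 in morphants at 18 somites and -1.35, -0.88 and -0.88 at 10 somites, against -1.18, -0.31 and -0.87 in controls at 18 somites and 1.58, 1.83 and 1.5 at 10 somites. It fell 1.86-fold in morphants and 5.36-fold in controls (difference 1.53 ± 0.26, adjusted p = 0.0396, 0.000866 to 0.125 over the alternatives). The morphant mean at 18 somites was in the tag range, and the controls at 10 somites stood above all other arrays. The myeloid factor gene cebpa started level, at a mean of 2.64 in morphants and 2.63 in controls at 10 somites. It fell in both (-0.34 ± 0.11 and -0.55). Its morphant call (adjusted p = 0.0204) was lost after quantile normalization (adjusted p = 0.144). The call was also lost without the first 18 somite or the third 10 somite morphant array (adjusted p up to 0.101). The retinoic acid synthesis gene aldh1a2, which acts in somites, read 0.71, 0.66 and 0.61 in morphants at 18 somites and 1.74, 1.60 and 1.57 at 10 somites, against 1.93, 1.87 and 1.77 in controls at 18 somites and 2.30, 2.17 and 2.1 at 10 somites. Its fall was larger in morphants, at -0.98 ± 0.08 against -0.33 (difference -0.64 ± 0.11, adjusted p = 0.0396, 0.00559 to 0.155 over the alternatives). The representative probe set of the retinoic acid degrading gene cyp26b1 had a change of 0.07 ± 0.08 in morphants, which did not pass (adjusted p = 0.502). Its 3 other probe sets ranged from 0.16 to 0.54, with adjusted p from 0.000198 to 0.295, so the probe sets of this gene differ.

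The p53 target phlda3, an inhibitor of Akt signalling, read 0.74, 0.72 and 0.60 in morphants at 18 somites and 1.75, 1.79 and 1.96 at 10 somites, against 1.11, 1.07 and 0.85 in controls at 18 somites and 1.34, 1.43 and 1.02 at 10 somites. It was thus highest in morphants at 10 somites and lowest in morphants at 18 somites (difference -0.90 ± 0.15, adjusted p = 0.0396, 0.0111 to 0.155 over the alternatives). In the list of p53 and morpholino response genes, 15 of 33 fell and 5 rose in morphants, and 10 fell and 3 rose in controls. Such genes respond to injection itself in many morpholino studies, and the part of that response in these differences was not tested. Among genes that passed with the block but not without it, the caspase gene casp8 read 0.04, 0.09 and 0.17 in morphants at 18 somites and 0.85, 0.86 and 0.99 at 10 somites, against 0.15, 0.27 and 0.01 in controls at 18 somites and 0.36, 0.18 and -0.13 at 10 somites (difference -0.80 ± 0.15, adjusted p = 0.075, and 0.0301 with the block, 0.0286 to 0.203 over the alternatives). The 10 somite morphant arrays stood above all other groups. The growth arrest gene gadd45aa (difference -0.61 ± 0.12, adjusted p = 0.0754, 0.0209 with the block, 0.0209 to 0.227 over the alternatives) and foxo3b (-0.90 ± 0.20, adjusted p = 0.149, 0.0091 with the block, 0.0091 to 0.355 over the alternatives) had the same sign. These 3 genes were chosen after their values were seen. A second foxo3b probe set changed by -0.27 in morphants and did not pass (adjusted p = 0.155). Over the p53 and morpholino response list the median difference was 0.08. Differences called there were 1 lower and 0 higher, and 5 lower and 0 higher with the block. The difference went the other way for junba (0.82 ± 0.25, adjusted p = 0.342) and ccng2 (0.49 ± 0.25, adjusted p = 0.662).

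The 5 other named genes with a called difference were crip2, matn4, gtpbp1l, rspo1 and zgc:92606, the last chosen after its values were seen. The LIM domain gene crip2 rose in both, by 0.66 ± 0.08 in morphants and 1.52 in controls (difference -0.86 ± 0.12, adjusted p = 0.0239). Its morphant arrays at 10 somites, 1.84, 1.78 and 1.78, lay above those of controls, 1.08, 1.27 and 1.28. The matrilin gene matn4, a matrix protein, rose by 1.45 ± 0.08 in morphants and 2.17 in controls (difference -0.72 ± 0.12, adjusted p = 0.0396), with both morphant means in the tag range. The genes gtpbp1l and rspo1, the second a secreted Wnt enhancer, fell in morphants (-0.46 ± 0.08 and -0.47 ± 0.08) and rose in controls (0.26 and 0.32), with differences of -0.71 ± 0.12 and -0.80 ± 0.11 (adjusted p = 0.0396 and 0.0239). All rspo1 means lay in the tag range. The gene zgc:92606 rose in morphants (0.62 ± 0.09) and fell in controls (-0.27), with a difference of 0.88 ± 0.13 (adjusted p = 0.0239). Over the alternatives the adjusted p reached 0.103 for crip2 and rspo1, 0.155 for matn4, 0.157 for gtpbp1l and 0.0912 for zgc:92606. A second probe set of the keratin gene krt1-19e also passed (0.12 in morphants, 0.74 in controls), while its representative probe set did not (difference -0.15 ± 0.10, adjusted p = 0.748), and the 3 other calls were on unnamed probe sets.

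The hindbrain gene egr2b (krox20), which marks rhombomeres that need Pbx, had no stage change to measure in morphants. It read -1.85, -2.01 and -2.33 in morphants at 18 somites and -1.97, -2.28 and -2.1 at 10 somites, all in the tag range, against 1.22, 1.21 and 1.42 in controls at 18 somites and 2.1, 2.22 and 2.09 at 10 somites. Controls fell by 0.85 on the log2 scale and the morphant change was 0.05 ± 0.11 (difference 0.91 ± 0.16, adjusted p = 0.0591, and 0.0222 with the block, 0.0149 to 0.174 over the alternatives). Of 32 hindbrain genes, 9 rose and 9 fell in morphants, counts near the 22.9% and 32.0% of all named genes. The segment gene mafbb rose by 0.82 ± 0.07 and epha4b by 1.1 ± 0.14, and hoxb1a had a change of 0.16 ± 0.11 that did not pass (adjusted p = 0.244).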

How the data were processed

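Zebrafish embryos of 4 groups were profiled on 12 Affymetrix arrays, 3 per group. Per the labels' protocols, biotinylated cRNA was made from 6 µg of total RNA. The deposited values are log2 expression per probe set, and the submitters' processing notes name RMA and affy, without versions. The grouping of arrays for RMA is not stated in those notes. Deposited array medians were 6.5285 to 6.569 in morphants at 18 somites and 7.289 to 7.313 at 10 somites, so the median change as deposited was -0.77 in morphants and -0.78 in controls. Each array was therefore centred on its median over the 15502 probe sets, after which both shifts were -0.02. Centring assumes that the median transcript kept its level. The number of arrays limits the precision, and no detection call was used.

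The platform annotation gave 1 symbol to 10795 probe sets, several to 135 and none to 4572, which are unnamed here. RefSeq genes of GRCz12tu served to update names (10711 probe sets matched by gene ID, 1 symbol changed). A gene was read from its probe set with the highest mean, and 1539 of 8793 genes had several probe sets.

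A mean per group was fitted to all 12 arrays with lmFit and eBayes of limma 3.58.1 (R 4.3.3), with 8 residual and 6.02 prior degrees of freedom. Tests were two-sided, adjusted by Benjamini-Hochberg over 15502 probe sets and called at 0.05. The script was tested on simulated data with known changes before use.

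Arrays that share a replicate number deviated together: r was 0.463, 0.315 and 0.292 between the morphant stages. It was over 0.1 for the other same-numbered pairs compared, those between the control stages and those between morphants and controls of the same stage. Pairs with different numbers mostly had a negative r. Deviations were taken from group means, so a positive r for same numbers forces part of this, and it is no separate evidence. The highest r of pairs with different numbers was 0.231, for morphant array 2 and control array 3 at 10 somites, against 0.214 for the arrays numbered 2 there. The numbers thus appear to pair the arrays, which the labels do not state. Blocked values are given for some of the results that they change.

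The genes named are the 15 highest and 15 lowest non-overlapping changes, the 8 highest and 8 lowest called differences, the 2 highest and 2 lowest called members of each of 45 gene lists, and a panel. Symbols such as si: and zgc: were passed over, except zgc:92606, which was added after its values were seen, as were krt1-19e, hoxd4a, pdha1a and the genes of which the text says so. The members and lists were chosen with earlier results of these data known. The alternatives were other scalings (as deposited, quantile, interquartile range), the brightest 60% of probe sets by mean (also centred again, chosen after seeing the data), an intensity trend, array weights, the replicate block, each treatment's 6 arrays alone, other probe sets of a gene, and leaving out each array. A range of adjusted p over the alternatives covers refits of the same probe set, without the other probe sets of its gene.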

Additional observations from a re-analysis of the deposited data

Results flagged for a closer look

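The difference of the stage changes between morphants and controls was called for 14 probe sets, and the 10 named genes among them are given here because the test of the difference itself passed. The largest was cmlc1, at -1.66, and the other cardiac gene was myh7, at -1.23. The remaining negative differences were phlda3 at -0.90, crip2 at -0.86, rspo1 at -0.80, matn4 at -0.72, gtpbp1l at -0.71 and aldh1a2 at -0.64. The positive ones were lcp1 at 1.53 and zgc:92606 at 0.88. The call for cmlc1 was made in all 12 fits that left out 1 array, and that for gtpbp1l in none of them.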

How the results depend on the processing

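The call counts depended on the scaling and on the probe sets tested. As deposited, without centring, 14773 probe sets were called in morphants (286 higher, 14487 lower) and 14805 in controls (255 higher, 14550 lower), 3955 of the morphant calls were at least 2-fold (65 higher, 3890 lower, so the excess of rises among the larger changes turned), and the difference gave 5. On the brightest 60% of probe sets by mean the counts were 5112 in morphants, 4707 in controls, 217 at least 2-fold and 3 for the difference, and centred again on these probe sets they were 4767, 4300, 233 and 3; fewer probe sets were tested there. For that subset the morphant calls were 1584 higher and 3528 lower, against 2153 and 2614 when centred again. The difference gave 49 with the replicate block and 34 with array weights. Leaving out 1 array at a time gave 7171 to 8324 morphant calls, 326 to 385 of at least 2-fold, 6737 to 8194 control calls and 1 to 15 called differences; the cause was not tested. The replicate block changed no other named call in morphants except pnhd (adjusted p = 0.0456). Of 4391 alternative values for the 215 named genes, 4312 kept direction and side of the threshold, 70 lost the call, 9 gained it and 0 reversed. Of 192 such values for the 10 named differences, 103 lost the call and 0 reversed. Of 990 list medians, 128 moved beyond the spread between arrays. Named genes had other probe sets in 34 cases, 3 with one of the other sign. Levels within the tag range compress changes, and depth in the sense of counts is not defined for arrays.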

Other observations

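Some genes known from the circadian clock and its light response were chosen after their values were seen, and as a group they were not tested. The clock output factor tefa read 1.07, 1.16 and 0.91 in morphants at 18 somites, against 2.23, 2.21 and 2.14 at 10 somites, and fell by 1.15 on the log2 scale (SE 0.08, adjusted p = 1.37e-07), with a control change of -0.80. The stages did not overlap. The nuclear receptor gene nr1d2b fell by 0.74 (SE 0.12), the repressor gene bhlhe41 by 0.83 (SE 0.09), the period gene per2 by 0.58 (SE 0.10) and the photolyase relative cry-dash by 0.56 (SE 0.10), all on the log2 scale, with control changes of -0.89, -0.60, -0.61 and -0.69. The second probe set of per2 was at -0.11 and did not pass (adjusted p = 0.415). The genes cry2 and ciarta fell by 0.43 and 0.44 (SE 0.10 and 0.17), with control changes of -0.47 and -1.06. The morphant call of ciarta (adjusted p = 0.0436) was lost after quantile normalization (adjusted p = 0.0914). It was also lost in 4 of the 12 fits that left out 1 array (adjusted p up to 0.211). The relative bhlhe40 rose by 0.89 ± 0.07, against 0.74 in controls. Core clock genes clocka (0.06 ± 0.10, adjusted p = 0.623), bmal1a (-0.09 ± 0.07, adjusted p = 0.306) and per3 (-0.13 ± 0.09, adjusted p = 0.267) did not pass the test. The labels do not state the time of day of collection, so stage and time of day cannot be told apart.

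Genes known to respond to low oxygen or to foreign chemicals, also chosen after their values were seen, were not tested as a group. The stress gene ndrg1a read 0.14, 0.54 and 0.46 in morphants at 18 somites, against -1.08, -1.09 and -0.89 at 10 somites (1.40 ± 0.12, adjusted p = 7.41e-07), and changed by 0.95 in controls. The detoxifying enzyme gene cyp1a read -0.97, -0.48 and -0.11, against -1.85, -2.14 and -1.86 (1.43 ± 0.17, adjusted p = 1.2e-05), and changed by 0.79 in controls. The growth factor gene vegfaa rose by 0.60 ± 0.09, against 0.54 in controls. The mitophagy gene bnip3 rose by 0.38 ± 0.08, within the tag range, against 0.09 in controls, and the lactate transporter gene slc16a3b did not pass (-0.38 ± 0.22, adjusted p = 0.164). For none of these 5 genes did the difference of the stage changes pass the test (adjusted p = 0.479, 0.476, 0.956, 0.55 and 0.802).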
